A study of Mus musculus with 1545 samples.

Results

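Galanin (Gal), its receptor Galr1 and the CART prepropeptide gene Cartpt were followed through 1545 neurons of the mouse spinal dorsal horn, each sequenced as a single cell. They are 3 of the 24378 genes in the deposited table of molecule counts, matched by name, and all 3 have an entry. They were chosen by their levels over neuron types and mouse lines in these same cells, so levels by type are given as a description, and p-values of these genes between lines are not independent of that choice. Of the cells, 637 came from C57bl6 wild-type mice (10 animal sets, 18 to 28 days old), 537 from a vGat-Cre-tdTomato line (3 sets, 17, 18 and 24 days) and 371 from a vGlut2-eGFP line (4 sets, 23 to 26 days). In the first reporter line the gene of the vesicular GABA transporter drives Cre, and so tdTomato in inhibitory neurons. In the second, the gene of a vesicular glutamate transporter drives eGFP in excitatory neurons. How fluorescent cells were picked is not stated here. The authors annotated 30 neuron types, 14 inhibitory (Gaba2 to Gaba15, 760 cells) and 15 excitatory (Glut1 to Glut15, 767 cells), and 1 type of 18 cells, Gaba1, whose cluster name is Glut_Gal. The authors' clustering read these same cells, and Gal is part of 3 cluster names, so types are compared by description only. The comparison of reporter lines is close to one of classes, since the vGat line held 1 excitatory cell and the vGlut2 line 5 inhibitory cells and 1 Gaba1 cell.

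Galanin is a neuropeptide cut from a longer precursor and stored in dense-core vesicles. In the dorsal horn it comes from local neurons and from some sensory fibres, and it acts on G protein-coupled receptors, of which GalR1 couples to Gi and can lower the excitability of the cell that carries it. CART peptides are cut from the Cartpt precursor, are used by sets of neurons in brain, gut and spinal cord, and have no settled receptor, although Gpr160 has been proposed.

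Gal lies on the minus strand of chr19:3409915-3414544 and Cartpt on the minus strand of chr13:99898489-99901091, both in GRCm38 (mm10) with the GENCODE vM21 annotation. Of Gal, the stretch of coding sequence that holds the mature peptide is shown, since it is the part of the transcript that encodes galanin itself, and the counts of the inhibitory neurons described below are counts of this gene. It spans chr19:3411592-3413340 over 2 coding exons of transcript Gal-201, and the capitals mark the codon pairs at which the precursor is cut, with 30 codons between them. The last of these is a glycine codon, whose residue gives the amide of the mature peptide and is not part of it.
Gal-201: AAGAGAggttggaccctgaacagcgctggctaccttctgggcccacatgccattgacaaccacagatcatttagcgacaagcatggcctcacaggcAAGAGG
Cartpt makes a longer and a shorter precursor by alternative splicing. Both are shown around the segment that sets them apart, because the deposited counts are per gene and hold both forms together. The capitals mark the 39 bases at chr13:99900041-99900079 that transcript Cartpt-201 has and Cartpt-202 lacks.
Cartpt-201: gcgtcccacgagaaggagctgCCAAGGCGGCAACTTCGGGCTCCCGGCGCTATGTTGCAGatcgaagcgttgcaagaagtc
Cartpt-202: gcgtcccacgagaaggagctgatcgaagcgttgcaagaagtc

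The cells held 14853604 molecules in all, with a median of 8687 per cell in wild type, 10413 in the vGat line and 7030 in the vGlut2 line. No animal is named in the labels. Cells that share line, sex and age labels were therefore added up, which gave 17 animal sets that serve as replicates. More than 1 mouse may stand behind a set, both wild-type sets of 22 days may share mice, and p-values measure the spread between sets. Each capture run held cells of 1 line (0 runs were mixed), and the effects of run and line cannot be told apart. The summed level of 10 oligodendrocyte markers was 34505 CPM (counts scaled to 1000000 molecules) in wild type, 3013 in the vGat line and 3942 in the vGlut2 line, of whose sets the 26-day set stood apart with 39988 against 78.2 to 2125 CPM. Xist was seen in 0% to 100% of the cells of sets labelled male, and sex labels are not read as measured sex.

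Gal was the most abundant of the members, with 8352 counts, found in 31.4% of the 1545 cells. Its level fell off steeply from a pair of inhibitory types. Gaba3 (cluster name GABA_Gal_Rspo3) stood at 3388 ± 927 CPM (SD, n = 10 sets) and Gaba2 (GABA_Gal_Pnoc) at 1551 ± 494.4 CPM (n = 11). All Gaba3 cells held Gal, with a median of 28 counts, and 86 of the 87 Gaba2 cells did, with a median of 15. The sets of these types ran from 2458 to 5346 CPM and from 625.1 to 2471 CPM.

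After each cell was thinned to 3000 molecules, so that depth no longer differed, 97.2% of Gaba3 cells (exact binomial 95% interval 93.1 to 99.2%) and 97.7% of Gaba2 cells (91.9 to 99.7%) still had a Gal molecule. All intervals here cover counting error only. Gaba1 came next among the types at 1243 ± 993 CPM (n = 5), followed by the excitatory type Glut3 (Glut_Cck_Trh) at 583.5 ± 748.7 CPM (n = 6) and Glut14 (Glut_Elavl4_Meis2) at 361.3 ± 314.8 CPM (n = 8). Of the 29 neighbouring pairs in the order of set means, 1 pair, Gaba3 above Gaba2, was separated by more than the SDs of both. Gal had no count in Glut1, Glut5, Glut9 and Glut12, so the range over types runs from 0 to the level of a leading transcript.

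In pooled counts the order after Gaba1 was Gaba8 (623.1 CPM), Gaba9 (464.2), Gaba7 (462.9), Glut3 (432.03), Gaba6 (376.3), Glut14 (335.4), Gaba14 (317.4), Gaba15 (289.3), Gaba12 (252.2), Gaba11 (143.7), Gaba10 (133.6), Gaba5 (123.95) and Gaba13 (108.6). The remaining types, Gaba4 and the other excitatory types, were at or below 78.1 CPM. One Gaba5 cell held 30 of the 34 Gal counts of its type, and without the cell with the most counts Gaba5 stood at 15.5 CPM, Gaba15 at 164.03 and Glut6 at 20.4 against 78.1 CPM. Apart from Gaba2 and Gaba3, the positions of the inhibitory types in this order rest on the vGat line, as described further on.

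**Figure D1:**
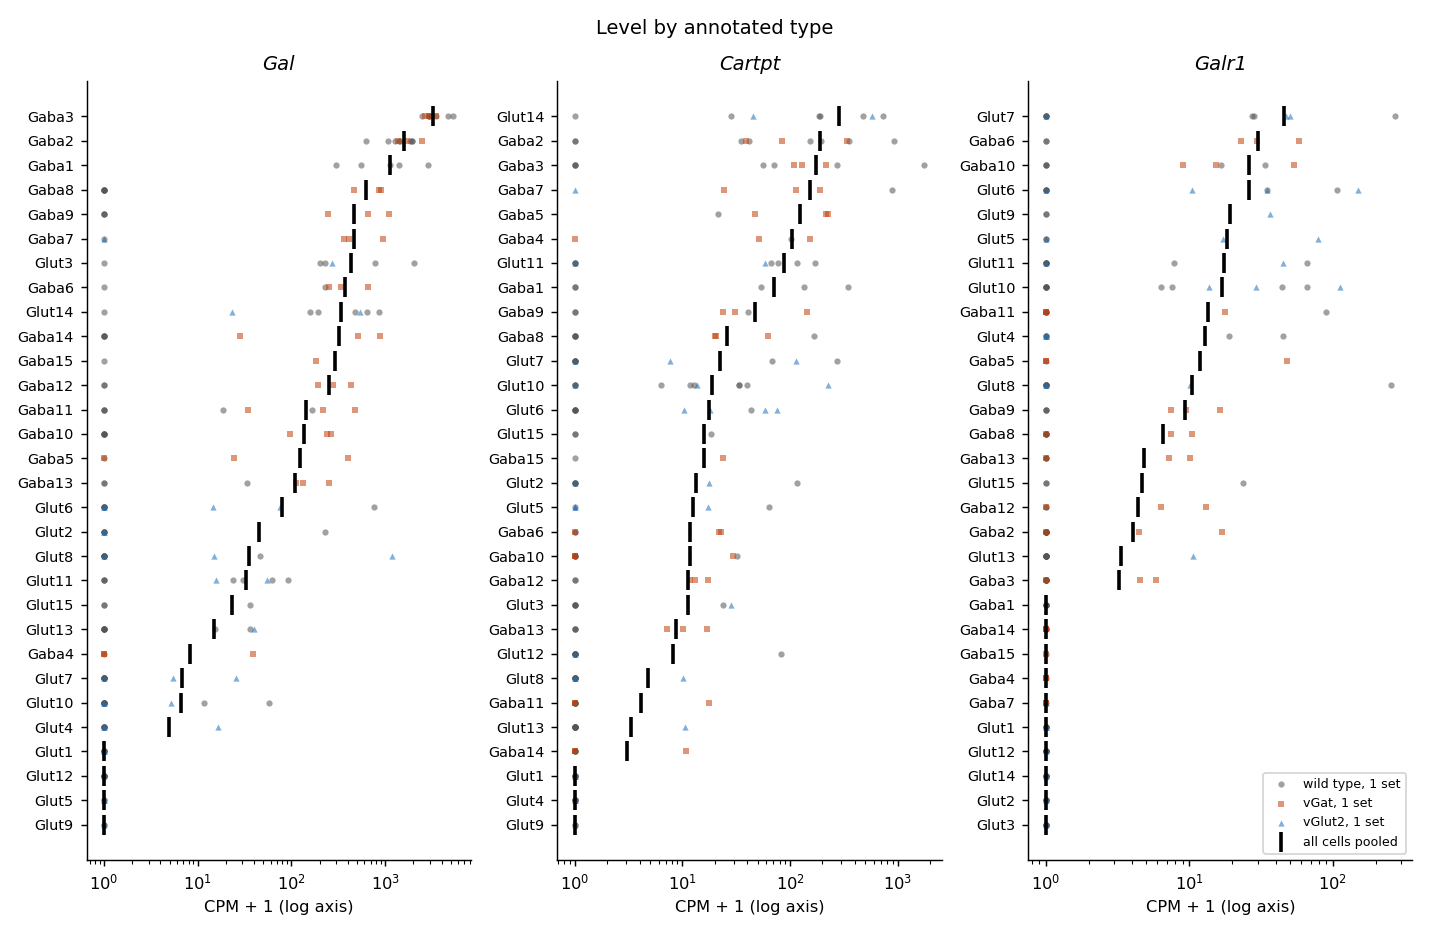
Level of Gal, Cartpt and Galr1 by annotated type, as CPM + 1 on a log axis, with types ordered by the pooled level of each gene. Each point is 1 animal set with at least 2 cells of the type (grey circles wild type, orange squares vGat line, blue triangles vGlut2 line) and the black bar is the level of all cells pooled. Gaba3 and Gaba2 lead for Gal with 3242 and 1588 CPM pooled, Glut14 leads for Cartpt with 283.99 CPM, and Glut7 leads for Galr1 with 44.6 CPM.

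Gaba1 has labels of both classes, and its markers were mixed, with more counts of each GABA gene below than of Slc17a6. All 18 cells held Gal, from 1 to 27 counts with a median of 7. Slc17a6, the glutamate transporter gene of excitatory dorsal horn neurons, had 13 counts in 5 of the cells. Its level was 91.5 CPM, against 867.5 in Glut3 and 856.9 in Glut14. Gad1, Gad2 and Slc32a1, which make and load GABA, had 23, 18 and 16 counts. Gad1 stood at 161.8 CPM, against 414.8 in Gaba2 and 551.6 in Gaba3. At least 1 of these 3 genes was seen in 15 cells, both kinds were seen in 3, and neither in 1. Pnoc had 40 counts in 12 cells and Pax2 2 counts. Lmx1b and Tlx3, transcription factors of excitatory dorsal horn neurons, and Slc6a5, the glycine transporter gene, had no count (0). Their absence says little, since Lmx1b had 0 and Tlx3 2 counts in Glut3, and Slc6a5 was at 12.4 CPM in Gaba2. The sum of the 10 oligodendrocyte markers was 68346 CPM, the highest of the 30 types against a median of 17927, and that of the 6 neuron markers was 2040 CPM, the lowest. Gaba1 is therefore kept apart from both classes, and its cells came from wild type except for 1.

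Among excitatory cells, Gal was concentrated in few. Of the 767, 66 cells (8.60%) held any Gal, and 6.13% did at 3000 molecules (4.54 to 8.07%), against 46.2% of the 760 inhibitory cells (42.6 to 49.8%). Glut3 and Glut14 had Gal in 38.2% (22.2 to 56.4%) and 41.2% (24.6 to 59.3%) of cells at that depth. Without these types the excitatory share was 2.86%. Both types showed Gal in both lines that supplied them. Glut3 stood at 506.5 CPM in wild type and 254.9 in the vGlut2 line, and Glut14 at 336.5 and 331.8 CPM. In wild type, however, Glut3 cells with 46 and 37 Gal counts held most of the Gal counts of that type. Without the cell with the most counts, Glut3 stood at 289.8 against 432.03 CPM over all lines, and Glut14 at 256.1 against 335.4 CPM.

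Cells with at least 10 Gal counts numbered 9 among the excitatory cells. The 4 in Glut14 had 36, 27, 18 and 15 counts, the 2 in Glut3 had 46 and 37, and 1 cell each in Glut6, Glut2 and Glut8 had 35, 14 and 13. All 9 had Slc17a6, with 3 to 17 counts. In the Glut3 cell with the most Gal, Gad1 had 3 counts, Gad2 1, Slc32a1 2, Pax2 2 and Pnoc 10. The other Glut3 cell had Gad1 1 and Pnoc 3, and the Glut6 cell Gad2 1, Slc32a1 1 and Pnoc 4. The Glut8 cell had Gad1 1, Pax2 1 and Pnoc 4. Gad2 had 5 counts in the Glut14 cell with 27 Gal counts, and Gad1 had 2 in that with 15. These cells showed transcripts of both classes. The Glut14 cells with 36 and 18 Gal counts and the Glut2 cell had no count of these genes. How far such cells hold material of a second cell was not tested.

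In wild type, which no reporter had enriched for a class, 78.7% of Gal counts came from inhibitory cells, 13.7% from excitatory cells and 7.62% from Gaba1. Inhibitory cells were above excitatory cells in all 7 wild-type sets that held 10 or more of both kinds, at 776.4 ± 413.3 against 73.4 ± 71.1 CPM. Per set the inhibitory level had its lowest value at 275.97 CPM, its median at 799.6 and its highest at 1306, and the excitatory level ran from 1.63 to 185.1 CPM. The pair of class ranges therefore did not overlap. Over all lines, Gaba3 alone held 52.4% and Gaba2 18.5% of the Gal counts, from 9.39% and 5.63% of the cells.

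Over all cells of a set, Gal stood at 953, 1225 and 915 CPM in the 17-, 18- and 24-day sets of the vGat line. In the vGlut2 line it stood at 60.8, 9.57, 19.4 and 421.1 CPM in the 23-, 24-, 25- and 26-day sets. The lines did not overlap, and the 26-day vGlut2 set, the one with a high oligodendrocyte sum, was far above the other vGlut2 sets. Of its 67 Gal counts, 36 came from 1 Gaba3 cell. The log2 difference was 3.16 (SE 0.72, edgeR quasi-likelihood adjusted p = 0.00905), in a comparison in which the vGat line was higher for 4.32% of 10598 genes and lower for 4.53%. Gal was chosen by its levels over types and lines in these cells, and the lines nearly stand for the classes. Its p is therefore not independent of that choice and is no separate evidence. With DESeq2 (2.87, adjusted p = 0.231) or with age as a covariate (3.801, adjusted p = 0.0890) the call was lost, and without the 26-day vGlut2 set the difference was 5.11.

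**Figure D2:**
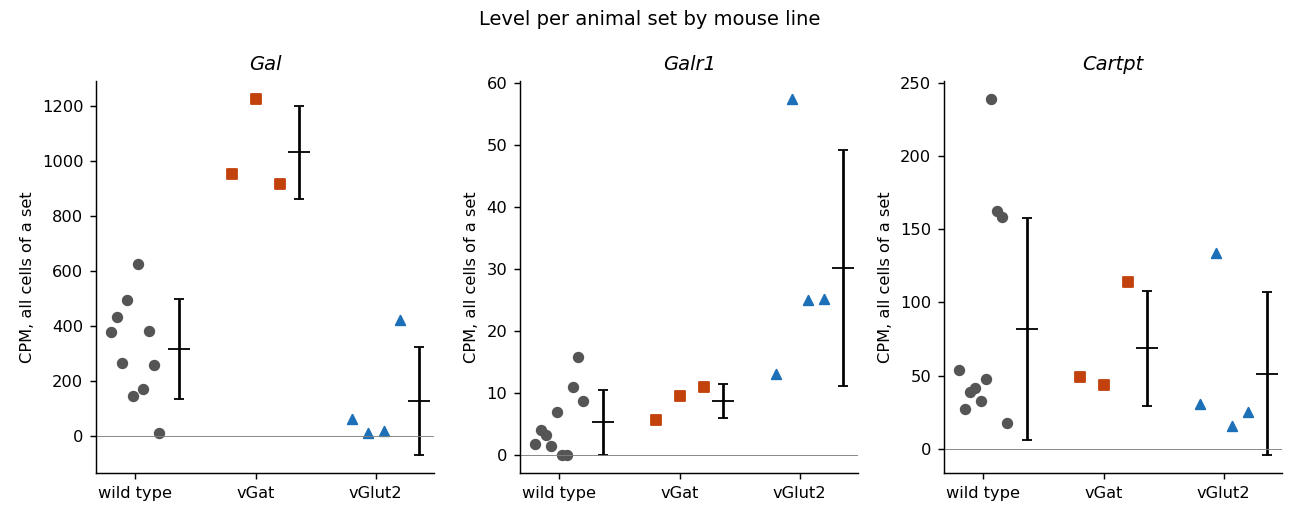
Level of Gal, Galr1 and Cartpt over all cells of each animal set, in CPM on linear axes, for the 3 mouse lines. Points are sets and bars are mean ± SD over 10, 3 and 4 sets. The vGat sets are highest for Gal at 915 to 1225 CPM, and for Galr1 the vGlut2 sets, at 13.0 to 57.4 CPM, lie above the vGat sets while the lowest of them lies within the wild-type range of 0 to 15.9 CPM.

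Inside the Gal-rich types the Gal levels of the lines overlapped. In Gaba2 and Gaba3 cells together, the 8 wild-type sets with at least 5 such cells ran from 1261 to 3713 CPM with a mean of 2252 ± 831, and the 3 vGat sets were at 2799, 2790 and 2293 CPM, inside that range. The fitted log2 difference was 0.09, and 0.03 to 0.34 under the 14 alternatives. In this edgeR comparison the vGat line was higher for 4.22% of 2775 genes and lower for 12.5%. The clustering that made these types read Gal, so cells of both lines were placed here partly by their Gal. The fit therefore cannot show whether the lines are alike, and no p is given for Gal. Gaba2 and Gaba3 made up 35.4% of the inhibitory cells in the 18-day vGat set, 24.7% in the 17-day set and 27.2% in the 24-day set, and 21.4 to 60% in the 7 wild-type sets.

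Gal in the other 12 inhibitory types differed between the lines. In the vGat sets these cells stood at 387.002, 472.1 and 468.4 CPM. In the 8 wild-type sets with at least 5 such cells, 4 had no Gal count (0) and the others stood at 25.6, 37.0, 44.4 and 46.9 CPM. The sets of the lines did not overlap. The fitted log2 difference was 3.84 (SE 0.33), in an edgeR comparison in which 5.46% of 5954 genes were called higher and 11.9% lower. It lay between 3.63 and 4.25 under the 14 alternatives, with age as a covariate among them (3.78). The comparison was added after the data had been seen, and the clustering that made the types read Gal, so no p is given for Gal.

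Counted by cell, 42.8% of the vGat cells of these types had Gal, against 6.08% of the wild-type cells (9 cells). At 3000 molecules the shares were 32.2% (27.5 to 37.2%) and 2.70% (0.741 to 6.78%). The median cell held 10700.5 molecules in the vGat line and 11273 in wild type. At least 3 Gal counts were found in 28.7% of the vGat cells and 2.70% of the wild-type cells, and 71 of the vGat cells had 10 or more.

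All 12 types had Gal in the vGat line and 5 of them in wild type, and the vGat level was the higher in each of the 12. The largest type shares in the vGat line were those of Gaba15 with 3 of 5 cells, Gaba8 (GABA_Calb2_Krt17) with 33 of 55, Gaba7 (GABA_Npy_Crabp1) with 15 of 29, Gaba6 (GABA_Npy_Qrfpr) with 17 of 37 and Gaba9 (GABA_Calb2_Tac1) with 30 of 67. The smallest were those of Gaba5 with 2 of 14 and Gaba4 with 1 of 6. Before thinning, Gaba5 had the larger share in wild type, with Gal in 2 of 5 cells and at most 2 counts in a cell. In wild type, none of the 12 Gaba8 cells (0) and none of the 17 Gaba9 cells (0) had Gal, which at 3000 molecules allows shares up to 26.5% and 19.5%. The cell with the most Gal counts of the series was a Gaba9 cell of the 24-day vGat set, above the highest Gaba3 cell with 86 counts.

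**Figure D3:**
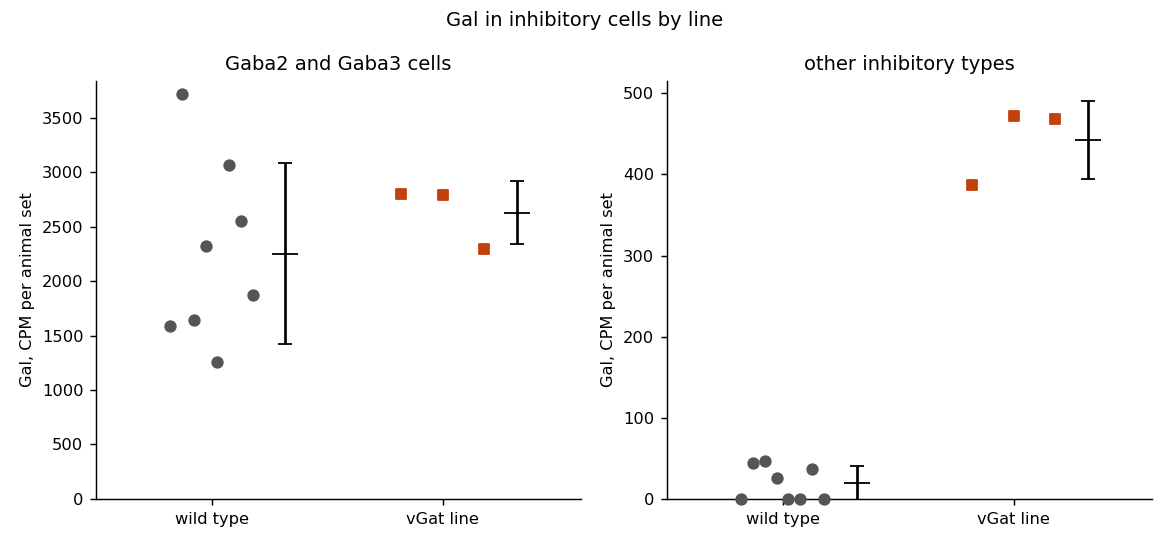
Gal in CPM per animal set, on linear axes with different ranges, in Gaba2 and Gaba3 cells (left) and in all other inhibitory types (right), for wild type and the vGat line. Points are sets with at least 5 such cells and bars are mean ± SD. On the left the vGat sets (2293 to 2799 CPM) lie within the wild-type sets, and on the right they (387.002 to 472.1 CPM) lie above all of them (at most 46.9 CPM).

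**Figure D4:**
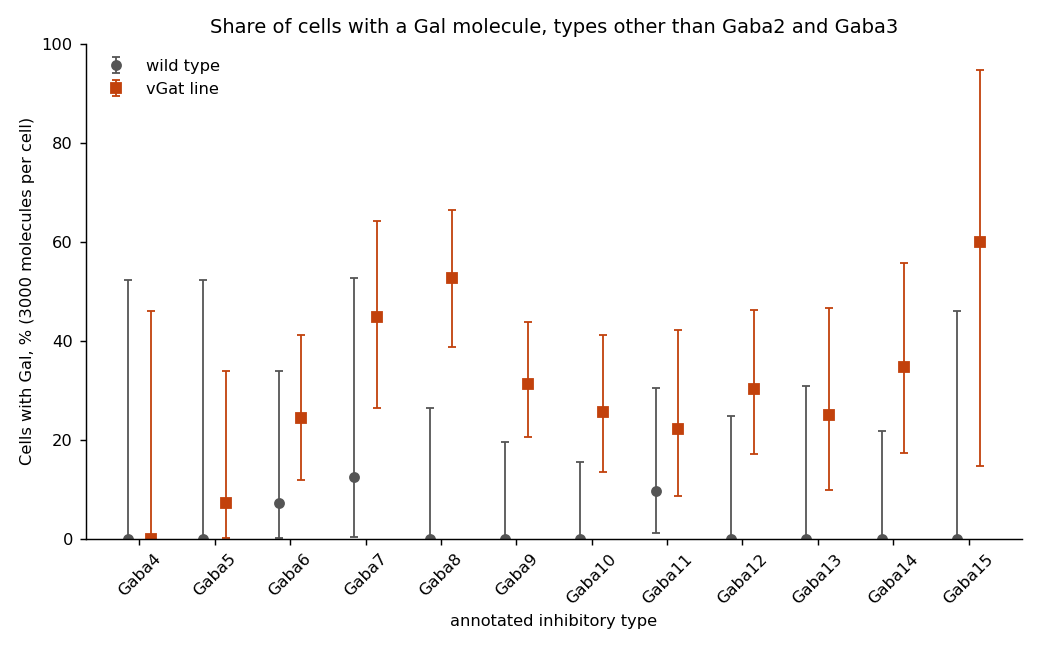
Share of cells with a Gal molecule at 3000 molecules per cell, by inhibitory type other than Gaba2 and Gaba3, with exact binomial 95% intervals. Grey circles are wild type and orange squares the vGat line. The vGat share is the higher in every type but Gaba4, where both are 0%.

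The 8 capture runs of the vGat line had 290.9 to 569.9 CPM of Gal in these types, so it was not confined to 1 run. Among the vGat cells of these types, those with at least 3 Gal counts had a median of 10825 molecules and those with none 10666. The line held 1 cell annotated as excitatory, so Gal outside the inhibitory types could not be measured in those runs. The oligodendrocyte markers moved the other way, with 10 of 10 lower in the vGat line (median log2 difference -2.91, against 11.9% of all tested genes lower), and their part in the result was not tested.

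Other genes with a high level in Gaba2 and Gaba3 are set beside Gal here as a description. The level outside Gaba2 and Gaba3, as a percentage of the level inside them, was 1.34% in wild type and 16.5% in the vGat line for Gal. For Pdyn, the dynorphin precursor gene, it was 8.79% and 21.2%, for the somatostatin receptor gene Sstr2 16.3% and 37.0%, for Pnoc, which encodes the nociceptin precursor, 18.2% and 47.4%, and for Rspo3, a secreted Wnt agonist, 15.02% and 34.2%. In the fit of the other types, the difference of the vGat line on the log2 scale was 0.96 for Pnoc and 1.37 for Rspo3. Pnoc passed the threshold and Rspo3 did not, and Pdyn had too few counts for the filter. That fit was added after the data had been seen, and the names of Gaba2 and Gaba3 hold Pnoc and Rspo3, so no p is given for these genes.

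The difference of the line effects was fitted as an interaction of line and type group, in 3 vGat and 7 wild-type sets with at least 5 cells of both groups and the set as a block. The Gal difference between lines was larger in the other types by 3.64 on the log2 scale (SE 0.39), and by 3.39 to 4.27 under the 12 alternatives. In the edgeR fit of 6437 genes, 2 were called higher (0.0311%), Gal and Pnoc (1.40), and 5 lower (0.0777%), namely Crabp1, Cplx1, Gad1, Ldhb and 1500016L03Rik. The partition into types came from clustering that read Gal, so a cell's place in Gaba2 or Gaba3 is not independent of its Gal count, the fit was made after this pattern had been seen, and its values are a description. Over all inhibitory cells the line difference of Gal was 0.38 (adjusted p = 0.415, with 8.39% of 7687 genes called higher and 12.9% lower).

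Galr1, which lies on chromosome 18, was sparse, at 10.4 CPM over all cells. It was found in 7.64% of cells, of which 94 cells had 1 count, and the highest cell had 6. Galr2 and Galr3, the other galanin receptor genes, had 3 and 2 counts in the series, and Galp, a related ligand, had none (0). Excitatory cells held 59.1% of the Galr1 counts over all lines and 74.4% in wild type. They made up 49.6% and 62.95% of the cells, so the excess was modest and rests on few counts. In wild type, 6 of the 10 inhibitory counts were in 1 Gaba11 cell. Excitatory cells had Galr1 in 5.08% of cells at 3000 molecules (3.64 to 6.89%) and inhibitory cells in 2.11% (1.21 to 3.40%).

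Glut7 (Glut_Tac2_1) led with 31 counts, 44.6 CPM (exact Poisson interval 30.3 to 63.3) and 23.1% of its cells, and it held 20.1% of all Galr1 counts. It was followed by Gaba6 at 28.9 CPM, Gaba10 (GABA_Cplx1_Adamts5) at 24.9, Glut6 (Glut_Tac2_2) at 24.9, Glut9 (Glut_Reln_Npff) at 18.3, Glut5 (Glut_Tac2_3) at 17.4, Glut11 at 16.5, Glut10 at 15.9 and Gaba11 at 12.5 CPM. The excitatory types named for Tac2, the neurokinin B gene, held 3 of the 6 highest places, while the inhibitory type Gaba4 (GABA_Tac2) had no Galr1 count (0). Without the cell with the most counts, Glut5 stood at 6.15 and Gaba11 at 3.24 CPM. Over sets, Glut7 stood at 42.01 ± 82.6 CPM (n = 10), where the 22-day set labelled female had 270.2 CPM from 4 counts and 5 sets had none. None of the 29 neighbouring pairs was separated by more than the SDs of both (0).

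The types with the highest Gal levels had few Galr1 counts. Gaba3 and Gaba2 had 3 counts each, at 2.22 and 3.09 CPM, and all of these counts were in the vGat line. Galr1 had no count in Gaba1, Glut3 and Glut14 (0), where 3 counts would stand for 21.1, 10.3 and 7.34 CPM, nor in Gaba4, Gaba7, Gaba14, Gaba15, Glut1, Glut2 and Glut12 (0). Among excitatory cells with Gal at 3000 molecules, 0 of 47 had Galr1, which allows a share of up to 7.55%, against 5.42% of the 720 cells without Gal, so a difference was not detectable at this depth. In inhibitory cells the shares were 1.99% of cells with Gal and 2.20% of cells without.

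Within the excitatory cells, the 39 with Galr1 at 3000 molecules had Sst, the somatostatin gene, in 100% (90.97 to 100%) against 82.01% of those without, and Nmu, the neuromedin U gene, in 56.4% (39.6 to 72.2%) against 31.5% (28.1 to 34.97%). Cck, the cholecystokinin gene, was present in 2.56% (0.0649 to 13.5%) against 16.5% (13.9 to 19.4%). Trh and Cartpt were seen in none of the 39 cells (0).

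Over all cells Galr1 was at 5.69, 9.58 and 11.01 CPM in the vGat sets and at 13.0, 57.4, 25.1 and 25.1 CPM in the vGlut2 sets. The lines did not overlap in these sums over all cells. Of the 65 Galr1 counts of the vGlut2 line, however, 3 were in 1 inhibitory cell, a Gaba10 cell of the 26-day set. The level of that set is therefore not one of excitatory cells alone, and the 24-day set held only 19 cells. The log2 difference of vGat against vGlut2 was -1.51 (SE 0.39, edgeR adjusted p = 0.0210), in the same comparison in which 4.53% of genes were lower. As for Gal, that p is not independent of how the genes were chosen. Leaving out 1 vGat set, of 17 days (-1.30) or of 18 days (-1.61), ended the call, as did leaving out the vGlut2 set of 25 days (-1.47). DESeq2 (-1.60) and age as a covariate (-1.01) also ended it, and the sign held in all of these. Wild-type sets ranged from 0 to 15.9 CPM.

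Excitatory cells held 62 Galr1 counts in the vGlut2 line (23.6 CPM) and 29 in wild type (7.64 CPM), too few for the filter on low counts. Without the filter the difference was 1.49 (edgeR adjusted p = 0.0816), beside a background of 5.08% higher and 10.4% lower of 7163 genes in the filtered comparison. Glut7 made up 83 of the vGlut2 excitatory cells and 21 of the wild-type ones, and its own level was 45.8 CPM (25 counts) and 39.97 CPM (6 counts) in these lines. In sums over a class, fewer cells of a type and less RNA per cell cannot be told apart.

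Cartpt had 858 counts in 14.7% of cells, and its counts sat in few cells, since the 10 cells with the most held 32.4% of them, against 9.53% for Gal. Its highest type was excitatory. Glut14 stood at 279.9 ± 279.996 CPM (n = 8 sets), Gaba3 at 261.2 ± 537.04 (n = 10), Gaba7 at 242.9 ± 368.4 (n = 5) and Gaba2 at 195.8 ± 270.6 (n = 11). None of the 29 neighbouring pairs was separated by more than the SDs of both (0), so the order holds only for the pooled counts.

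Pooled, Glut14 had 283.99 CPM, Gaba2 190.4, Gaba3 173.3, Gaba7 153.5, Gaba5 123.95, Gaba4 102.99, Glut11 (Glut_Tac1_1) 87.6, Gaba1 70.4 and Gaba9 46.7. The other types with counts were at 24.9 CPM or lower, and Glut1, Glut4 and Glut9 had none (0). Some of these levels rest on 1 cell. Without the cell with the most counts, Gaba3 stood at 123.7 CPM, Gaba7 at 104.5, Gaba5 at 70.02, Gaba1 at 36.4 and Gaba9 at 24.2 CPM. The share of cells at 3000 molecules ordered the types differently, with 36.4% of Gaba4 cells (10.9 to 69.2%), 32.4% of Glut14 (17.4 to 50.5%), 30.8% of Gaba7 (17.0 to 47.6%), 21.8% of Gaba2 (13.7 to 31.98%) and 17.2% of Gaba3 (11.5 to 24.4%). Gaba4 had 2 counts at most in any cell, so there many cells held little.

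Both classes held Cartpt. In wild type 59.3% of its counts came from inhibitory and 38.5% from excitatory cells, and inhibitory cells were the higher in 4 of 7 sets, at 107.7 ± 132.1 against 42.9 ± 30.6 CPM. Gal and Cartpt overlapped in part. At 3000 molecules Cartpt was seen in 16.8% of inhibitory cells with Gal (13.05 to 21.1%) and 6.85% of those without (4.597 to 9.74%), and in 25.5% of the 47 excitatory cells with Gal (13.9 to 40.3%) and 4.03% of the 720 without (2.71 to 5.73%). Nearly all Gaba2 and Gaba3 cells had Gal, and 25.4% of them in wild type and 16.25% in the vGat line had Cartpt. In the other inhibitory types these shares were 8.11% and 8.24%. The inhibitory contrast therefore cannot be told apart from one between types. Within Glut14, 7 of 14 cells with Gal and 4 of 20 without had Cartpt, and all 14 cells with Gal had Tac1, the substance P gene, against 9 of 20 without.

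Age labels separated the wild-type inhibitory cells in their Cartpt. Among sets labelled male with at least 10 inhibitory cells, Cartpt was at 14.6, 25.6, 39.8 and 28.3 CPM in the 18-, 19-, 20- and 21-day sets, and at 354.9 and 230.1 CPM in the 26- and 27-day sets. The 26- and 27-day sets lay above all younger sets of this fit. The slope was 0.45 on the log2 scale per day (SE 0.048, edgeR adjusted p = 4.88e-07), in a fit in which 0.0315% of 6352 genes rose and 0.0157% fell with age, namely Cartpt and Ptgds up and Gm9846 down.

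Single cells held a large part of the Cartpt counts in the older sets. Of the 83 counts in the 26-day set, 68 were in 1 Gaba3 cell, and in the 27-day set 1 Gaba2 cell held 45. Without the cell with the highest count the slope was 0.34 (adjusted p = 0.000805), and without the top cell of each set it was 0.41 (adjusted p = 0.00798). Cells with any Cartpt were 1 of 15, 6 of 31, 6 of 55 and 1 of 19 in the younger sets, and 5 of 24 and 13 of 42 in the older ones. All 11 alternatives that gave an adjusted p kept the call, with slopes of 0.34 to 0.55. DESeq2 gave none, and in a fit with 1 set left out Cartpt did not pass the filter on low counts. A fit without the 27-day set, on the genes of the fit with all sets, was added after that and is among the 11. The slope rests on 6 sets with no set between 21 and 26 days, and each age is 1 set, so age and set cannot be told apart.

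Sets outside this fit lay between. The 22-day set labelled female had 60.1 CPM in inhibitory cells, the 22-day male set with 8 such cells 64.9, and the 28-day set with 5 such cells 78.3. In the vGat line the level was 49.1, 43.3 and 113.8 CPM at 17, 18 and 24 days. Excitatory cells had a Cartpt slope of -0.014 per day (edgeR adjusted p = 0.972, background 0.0135% called in each direction of 7424 genes), and the difference of slopes between classes was 0.377 (SE 0.092, unadjusted p = 0.00048, edgeR adjusted p = 0.999). In that test edgeR called 0% of 8499 genes (0 genes), and 3.45% had an unadjusted p under 0.05. Over all cells of the wild-type sets labelled male, the Cartpt slope was 0.198 (edgeR adjusted p = 0.143), in a fit in which 0.034% of 8825 genes were called in each direction. Gal had a slope of -0.085 in inhibitory cells (adjusted p = 0.767).

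**Figure D5:**
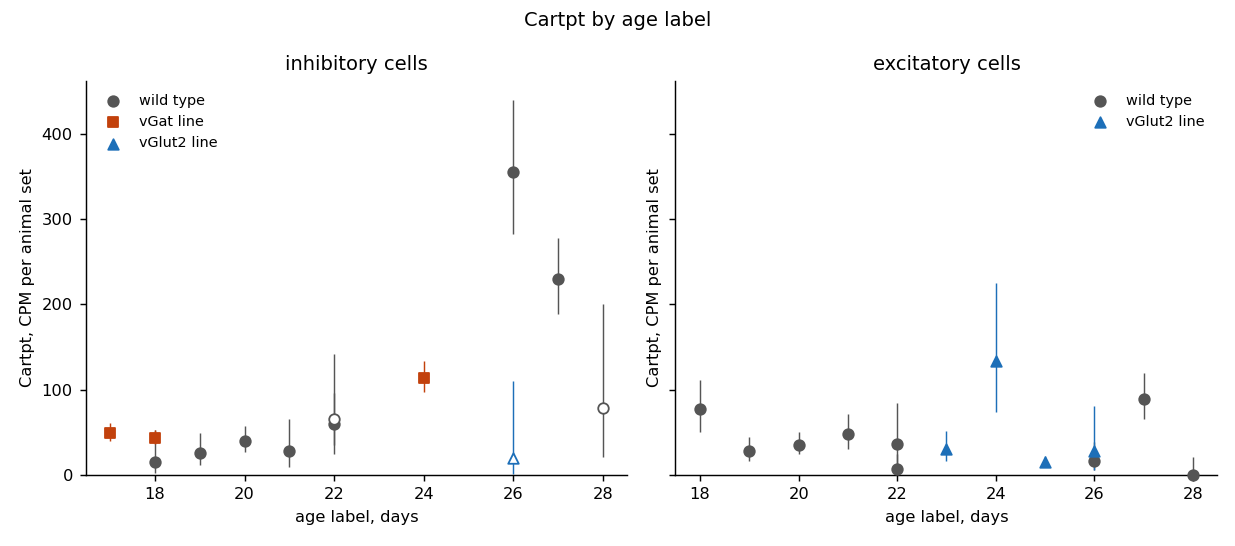
Cartpt in CPM per animal set against the age label in days, in inhibitory cells (left) and excitatory cells (right), on linear axes, with exact Poisson 95% intervals for counting error. Colours are the lines, and open symbols are sets with fewer than 10 cells of the class. Wild-type inhibitory cells are at 14.6 to 39.8 CPM at 18 to 21 days and at 354.9 and 230.1 CPM at 26 and 27 days, while excitatory cells have no such step.

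Between the reporter lines Cartpt did not pass the test, with 48.9, 43.3 and 113.8 CPM in the vGat sets and 30.4, 133.95, 15.3 and 25.1 CPM in the vGlut2 sets (log2 difference 1.23, SE 0.51, edgeR adjusted p = 0.170). That p too is not independent of how the genes were chosen. The 24-day vGlut2 set, with 19 cells and 14 Cartpt counts, lay above all vGat sets. In inhibitory cells of the vGat line against wild type the difference was -0.78 (adjusted p = 0.314) and became 0.48 with age as a covariate. In the excitatory cells of the vGlut2 line against wild type it was -0.35 for Cartpt and -0.13 for Gal, neither called.

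Other peptide genes were seen in different shares of the cells with and without Gal, given here with no test. Inhibitory cells with Gal at 3000 molecules had Pnoc in 71.2% (66.2 to 75.9%) against 33.5% without Gal (28.9 to 38.3%), Rspo3 in 22.8% against 5.87%, and Pdyn in 18.2% (14.3 to 22.7%) against 2.44% (1.18 to 4.45%). Npy, the neuropeptide Y gene, went the other way with 45.01% against 63.8%, as did Tac1 with 11.7% against 21.8%. In the types other than Gaba2 and Gaba3, however, Npy was seen in 68% of cells with Gal (59.1 to 76.1%) and 64.02% of those without. The excitatory cells with Gal had Cck in 57.4% (42.2 to 71.7%) against 13.1% and Trh, the gene of thyrotropin-releasing hormone, in 29.8% (17.3 to 44.9%) against 4.44%. Cluster names hold Pnoc, Rspo3, Npy, Tac1, Cck or Trh, so these shares are not independent of the clustering.

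Over the 30 types the genes whose levels ran most like Gal were Sstr2 (Pearson r = 0.885 of log2(CPM + 10)), Pnoc (0.853), Sfrp1 (0.846), Lgals9 (0.812) and Sstr1 (0.791), among 7313 genes compared. In wild-type cells alone these values were 0.71, 0.618, 0.467, 0.319 and 0.688. For Cartpt the 5 nearest were Abi3bp (0.67), 1700037H04Rik (0.63), Parm1 (0.628), Pdyn (0.624) and Rnf182 (0.613), and for Galr1 Gm11992 (0.68), Ctdspl (0.678), Slc35c2 (0.673), M6pr (0.635) and C230081A13Rik (0.626). Gal and Cartpt had r = 0.524 with each other, Gal and Galr1 -0.293, and Cartpt and Galr1 -0.21. The points share libraries, depth and line make-up, and no test was made.

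Genes for peptide release were called in both directions between the reporter lines. In this comparison, 15 of 16 genes for peptide processing and dense-core vesicles were tested (median log2 difference 0.27), of which 4 were higher in the vGat line and 4 lower, against 4.32% and 4.53% of all genes. Cadps2 (2.11), Scg3 (1.17), Scg2 (0.73) and Cadps (0.63), which act in vesicle formation or release, were the higher ones. The convertase genes Pcsk1 (-1.65) and Pcsk2 (-0.95), the convertase inhibitor gene Pcsk1n (-1.34) and the granin gene Chga (-0.89) were the lower ones. Of 12 genes for Gi/o coupling and GIRK channels, 11 were tested (median 0.12) and 1, Gnai2, was lower (-1.12).

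In the inhibitory types other than Gaba2 and Gaba3, where Gal differed by line, Chgb (1.04) and Scg2 (0.77) of 13 tested processing genes were higher in the vGat line and Pcsk1n (-1.25) lower, beside 5.46% and 11.9% of all genes. Of 8 signalling genes, Rgs4 was higher (0.65) and Gnai1 (-0.65), Gnao1 (-0.55) and Gnai2 (-1.45) lower. Of 7 tested partner peptides, Npy (1.12), Tac1 (0.99) and Pnoc (0.96) were higher and none lower (0). Pnoc is in the name of Gaba2, which this comparison leaves out, and the comparison was added after the data had been seen. In Gaba2 and Gaba3 cells, where the lines overlapped in Gal, Npy was higher in the vGat line as well (2.31), beside 4.22% of genes. Since other types are named for Npy, a cell's place in Gaba2 or Gaba3 is not independent of its Npy. No p is therefore given for Npy. Pam, the amidating enzyme gene (-1.14), and Pcsk1n (-1.42) were lower in Gaba2 and Gaba3 cells, beside 12.5% of genes. With age in wild-type inhibitory cells, edgeR called none (0) of the 28 processing, signalling and partner genes tested. Of all 6352 genes it called 0.0315% higher and 0.0157% lower. An unadjusted edgeR p under 0.05 was found for 10 of the 28, beside 6.83% of all genes, and the lowest adjusted p of the 28 was 0.264.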

How the data were processed

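Spinal grey-matter dorsal horn of mice was dissociated, and RNA of single neurons was counted by gene. The deposited table holds whole-number molecule counts for 24378 genes in 1545 cells, which the authors had filtered and annotated before deposit. Cell Ranger and mm10 are named in the submitters' processing notes, with no version. Other steps are not stated in these sources. The labels' protocol describes a droplet kit while cell titles have the form of run and well, so each cell was taken as 1 well of 1 run. Every column was used (0 columns were left out), no cell filter was added and no doublet caller was run. Cells held 3012 to 32886 molecules, with a median of 8808.

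Counts were summed by class and by animal set, the cells of 1 line with the same labels for sex and age. Sets with at least 10 cells of a class entered the tests, or at least 5 where types were grouped. edgeR 4.0.16 (R 4.3.3, limma 3.58.1) fitted quasi-likelihood models over all genes with TMM factors and its filter on low counts, and p-values were adjusted by the Benjamini-Hochberg method with a threshold of 0.05. DESeq2 1.42.0 served as an alternative, beside no filter, leaving out each set and adding age. The edgeR step was tested on simulated data. Levels (CPM) are summed counts scaled to 1000000 molecules. Shares come with exact binomial 95% intervals after each cell was thinned to 3000 molecules with a fixed seed, and a floor is 3 counts over a group. Likeness over types is Pearson's r of log2(CPM + 10) among genes with at least 100 counts and at least 50 CPM in 1 type. Python 3.11.15, NumPy 2.4.6, pandas 2.3.3, SciPy 1.17.1 and matplotlib 3.10.9 were used.

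The text names Gal, Galr1 and Cartpt, genes of lists for peptide processing, signalling, partner peptides and cell markers, and for each member the 5 genes most like it over types. Genes called in comparisons with few calls, and genes used to describe single cells, were named after their values were seen. The members and lists were chosen with earlier results of these data known.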

Additional observations from a re-analysis of the deposited data

Results flagged for a closer look

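A set whose level lay far from the other sets of its group was found in 4 of 15 groups examined. The cutoff is set to mark about 1 group in 20 by chance, a rate that was not measured in these data. The groups share cells and are not independent, and the 24-day vGlut2 set holds only excitatory cells, so its Cartpt value counts in 2 of the 4. Gal over all cells of the 26-day vGlut2 set stood at 421.1 CPM, against 60.8 CPM in the next highest of the 4 vGlut2 sets. Cartpt over all cells of the 24-day vGlut2 set stood at 133.95 CPM, against 30.4 CPM in the next set, and its excitatory cells stood at 133.95 CPM, against 30.6 CPM. Galr1 in inhibitory cells of the wild-type 27-day set stood at 14.9 CPM, against 5.66 CPM in the next of 7 sets. The Gal difference between the vGat line and wild type was larger in the inhibitory types other than Gaba2 and Gaba3 than inside them, by 3.64 on the log2 scale (edgeR interaction of line and type group, SE 0.39), a description because the pattern was seen first and the types come from clustering that read Gal.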

How the results depend on the processing

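Of the alternatives to the values the report leads with, 85.6% were counted as unchanged. For tested values this meant the same direction and side of the threshold. For levels without a test it meant a shift below the SD over sets, and for shares a value within the interval. That SD exceeds the mean for some levels, such as Cartpt in Gaba3 (261.2 ± 537.04 CPM), so the percentage does not measure the tested results alone. Of the rest, 15 changed sign, 13 gained a call, 8 lost it and 13 moved an untested value beyond these limits. Comparisons of other inhibitory types, of all cells by age and of interactions, and fits without single cells, were chosen after seeing the data. No paired analysis was possible because the sets carry no replicate numbers that are shared between lines. Sets per group, ages that differ between lines, and few Galr1 counts limit the precision, and the causes of the changes below were not tested.

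Between reporter lines, Gal was 2.87 with DESeq2 and 3.801 with age. Galr1 was -1.60 with DESeq2, -1.01 with age, -0.99 with age and without the 26-day vGlut2 set, and -1.73 to -1.30 with each set left out. Cartpt was called at 1.28 with no filter and at 2.06 with age and without the 26-day vGlut2 set, and ranged from 0.44 to 1.70 with each set left out. In inhibitory cells, no filter gave calls for Gal (0.50) and Cartpt (-0.68), and age turned Cartpt to 0.48. In excitatory cells, Gal was 0.55 with DESeq2, 0.29 with age and -1.29 to 0.58 with each set left out. Cartpt there was 0.27 with DESeq2 and -1.004 to 0.33 with each set left out. In Gaba2 and Gaba3, Cartpt was called at -0.93 with no filter and was 0.22 with age. In the other inhibitory types, Cartpt was called at 1.63 with age and ran from -0.11 to 0.70 with each set left out. The Cartpt slope per day ran from -0.284 to 0.0424 in excitatory cells with each set left out. Over all wild-type cells it was called at 0.194 with no filter and ran from 0.144 to 0.263. The difference of line effects for Cartpt was called at 1.92 with no filter and ran from 1.46 to 2.99.

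Without thinning, Gal was in 100% of Gaba3 and 100% of Gaba1 cells, Galr1 in 23.1% of Glut7 and 10.9% of Glut10, and Cartpt in 35.6% of Gaba2, 28.97% of Gaba3 and 48.7% of Gaba7. At 3 or more molecules Galr1 was in 0.962% of Glut7, 0.775% of Glut10 and 1.33% of Glut6, and Cartpt in 10.3% of Gaba7. With CPM per cell summed, 31.5% of Galr1 and 67.7% of Cartpt came from inhibitory cells.

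Shares of the tested genes called higher and lower moved with the alternative. They were 4.32% and 4.53% between reporter lines (1.67 to 6.93% and 1.30 to 6.83%), 8.39% and 12.9% in inhibitory cells (3.31 to 7.53% and 6.52 to 13.7%), and 5.08% and 10.4% in excitatory cells (1.57 to 5.55% and 4.27 to 11.3%). They were 4.22% and 12.5% in Gaba2 and Gaba3 (1.08 to 6.06% and 3.50 to 14.4%), and 5.46% and 11.9% in the other inhibitory types (2.08 to 5.88% and 5.26 to 11.9%). Numbers of genes called by age were 2 higher and 1 lower in inhibitory cells (1 to 6 and 0 to 8), 1 and 1 in excitatory cells (1 to 12 and 0 to 13), and 3 and 3 in all cells (1 to 16 and 0 to 46). For the difference of line effects they were 2 and 5 (1 to 25 and 0 to 14).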
